A study of Mus musculus with 24 samples.

Results

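De novo lipogenesis, the making of fatty acids from acetyl-CoA, was followed in mouse liver through 10 genes, Acly, Acss2, Acaca, Acacb, Fasn, Me1, Srebf1, Mlxipl, Thrsp and Pnpla3, chosen as every probe that carries one of these gene names. The arrays held 19 probes under 9 of the names. Me1 had none under its present symbol and was read from 2 probes under its older symbol Mod1, which gave 21 probes of 41174 on the array. After the filter on dim spots 19 of them were left, and all 10 genes were among the 18967 tested. Each gene is represented by its brightest probe, and the other probes of the 10 genes are given beside it.

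The livers came from C57Bl/6J mice of 2 genotypes. All mice carried floxed alleles of Mop3, the gene now named Arntl and widely known as Bmal1, which encodes a core transcription factor of the circadian clock. Mop3fxfx mice had these alleles alone (floxed livers), and Mop3fxfxCreAlb mice had in addition a Cre recombinase driven by albumin regulatory sequence (Cre livers). Albumin is made by hepatocytes, so other liver cells keep the gene, and no mice with Cre alone were among the groups. Food was always available under a cycle of light and dark, and livers were taken every 4 h from lights on (zeitgeber time 0, ZT0) to ZT20 at 10 and at 20 weeks of age. Each genotype, age and time had 1 array, with RNA pooled from at least 3 mice, so there were 24 arrays, 12 per genotype and 6 per genotype and age. A pool of 10-week livers of both genotypes was the common reference.

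In this pathway ATP citrate lyase (Acly) and acetyl-CoA synthetase (Acss2) supply cytosolic acetyl-CoA, the acetyl-CoA carboxylases (Acaca, Acacb) turn it into malonyl-CoA, and fatty acid synthase (Fasn) builds palmitate with NADPH that comes in part from malic enzyme (Me1). In liver the programme is driven by SREBP-1c, a product of Srebf1 that responds to insulin, and by ChREBP, the product of Mlxipl, which responds to glucose metabolites. Thrsp (Spot 14) is a small nuclear protein induced with these enzymes, and Pnpla3 encodes a lipid droplet protein whose gene is a target of both factors. The hepatic genes are known to follow feeding and to have daily rhythms.

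The stretch before the transcription start is where such factors are known to bind, and the 250 bases before a start listed by RefSeq (build GRCm38.p6) are shown for 5 of the genes: Me1, Thrsp and Mlxipl, which were lower in Cre livers, and Fasn and Acly, whose brightest probes were not called. The windows are chr11:120824548-120824797 (- strand) for Fasn, chr9:86695915-86696164 (- strand) for Me1, chr11:100528001-100528250 (- strand) for Acly, chr7:97417551-97417800 (- strand) for Thrsp and chr5:135089640-135089889 (+ strand) for Mlxipl, each read 5′ to 3′ on the strand of the gene. Capitals mark every match, on either strand, to CACGTG (the E-box bound by ARNTL with CLOCK and also by USF and ChREBP), TCACNCCAC (SREBP), CCAAT (NF-Y), GGGCGG (Sp1), AGGTCA (one arm of a nuclear receptor element), the ChREBP element or TTATGNAA (PAR bZIP factors and NFIL3). A match describes the letters and is no evidence of binding.
Fasn: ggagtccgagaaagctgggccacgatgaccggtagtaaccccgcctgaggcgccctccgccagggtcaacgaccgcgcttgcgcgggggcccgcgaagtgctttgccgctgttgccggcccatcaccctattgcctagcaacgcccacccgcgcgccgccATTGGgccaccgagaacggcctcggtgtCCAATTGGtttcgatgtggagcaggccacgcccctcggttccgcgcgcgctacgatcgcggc
Me1: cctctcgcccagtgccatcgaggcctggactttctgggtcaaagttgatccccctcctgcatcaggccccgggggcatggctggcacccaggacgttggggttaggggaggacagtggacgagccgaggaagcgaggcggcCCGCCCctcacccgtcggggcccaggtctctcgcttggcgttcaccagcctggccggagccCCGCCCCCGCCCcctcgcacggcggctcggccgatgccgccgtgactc
Acly: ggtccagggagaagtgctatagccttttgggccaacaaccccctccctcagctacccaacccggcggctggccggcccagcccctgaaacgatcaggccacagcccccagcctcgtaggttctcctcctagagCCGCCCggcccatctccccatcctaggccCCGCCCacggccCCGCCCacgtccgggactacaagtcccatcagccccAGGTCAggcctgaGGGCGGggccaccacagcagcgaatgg
Thrsp: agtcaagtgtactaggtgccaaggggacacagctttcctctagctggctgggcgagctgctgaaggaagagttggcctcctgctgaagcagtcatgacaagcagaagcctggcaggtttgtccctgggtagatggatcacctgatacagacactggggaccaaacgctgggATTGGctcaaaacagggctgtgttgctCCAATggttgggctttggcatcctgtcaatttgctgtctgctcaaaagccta
Mlxipl: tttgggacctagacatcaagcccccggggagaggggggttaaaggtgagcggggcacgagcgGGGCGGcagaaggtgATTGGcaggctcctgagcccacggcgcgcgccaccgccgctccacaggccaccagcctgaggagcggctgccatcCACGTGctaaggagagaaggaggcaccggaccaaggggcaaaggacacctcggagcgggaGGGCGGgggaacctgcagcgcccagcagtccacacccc

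RefSeq listed 14 starts for the 10 genes. The E-box CACGTG stood before 1 of the 14, at position -98 of the Mlxipl start shown, and before 6.02% of all 32851 starts in the table. TCACNCCAC stood at -136 before another Mlxipl start, and before 1.05% of all starts. CCAAT was found before 9 of the 14 starts, which belong to 8 of the 10 genes, and before 33.8% of all starts. Fasn had 3 matches, of which those at -62 and -59 overlap on opposite strands, and Thrsp had matches at -79 and -52. GGGCGG was found before 7 of the 14 starts, which belong to 6 genes, and before 32.7% of all starts. It had 4 matches before Acly and 4 before Acss2. AGGTCA was found before Acly alone, at -40, and before 14% of all starts. The ChREBP element (0.0457% of all starts) and TTATGNAA (3.07%) were in none of the 14 windows, which says only that these letters were not within 250 bases.

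All values are log2 ratios of Cy5 over Cy3, read as liver over reference pool. The labels put the liver RNA in Cy3, against this reading. Within the 6 slides with more than 1 array, between 83.7 and 97.1% of the spots varied more in Cy5 than in Cy3, where a common reference would be steady. Under the labelled dyes every sign below would turn and every peak would move by 12 h, while amplitudes, p-values and total counts would stay. Arntl, the deleted gene, had an amplitude of 1.69 ± 0.17 (SE, 12 arrays) in floxed livers with its peak at 21.8 h, and of 0.22 ± 0.17 in Cre livers (peak heights above the mean). In the 12 Cre livers Arntl ran from -0.90 to 0.52. The highest was the 20-week liver of ZT0, and the other 11 lay at or below -0.24. That array also reached the floxed range of its age in several lipogenic genes named below, and its part in the results is given by leaving it out. Without it 5 members were called between genotypes, 4 between ages and 1 for a change between ages, as with it, and none for a rhythm, while 1 was called at a single time. Where the probe lies relative to the deleted part was not determined.

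Averaged over the day, 5 of the 10 lipogenic genes were lower in Cre than in floxed livers in limma's fit at an adjusted p under 0.05. They were Me1, Thrsp, Mlxipl, Acacb and Srebf1, with differences from -0.94 to -0.41 on the log2 scale. No member was called higher. Over all genes 12.1% were called lower and 12.0% higher, and 6862 had an unadjusted p under 0.05. The median difference of the 10 genes was -0.51, against -0.0048 over all genes, and 9 of the 10 were below 0, against 51.3% of all genes. It was -0.53 without the Cre array of 20 weeks at ZT0, -0.23 at 10 weeks and -0.67 at 20 weeks. With a term for each of the 12 pairs of arrays of 1 age and time, a fit added after seeing the data, 5 members were also called lower, with Pnpla3 (adjusted p 0.0389) in place of Srebf1 (0.0523). The median of the 10 genes was below 0 in 11 of the 12 pairs of arrays of 1 age and time. It ran from -0.84 at ZT4 of 20 weeks to 0.35 at ZT16 of 10 weeks, where the Cre liver lay on a slide of its own. Every pair of 20 weeks was also split between slides, while each other pair of 10 weeks shared a slide.

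**Figure D1:**
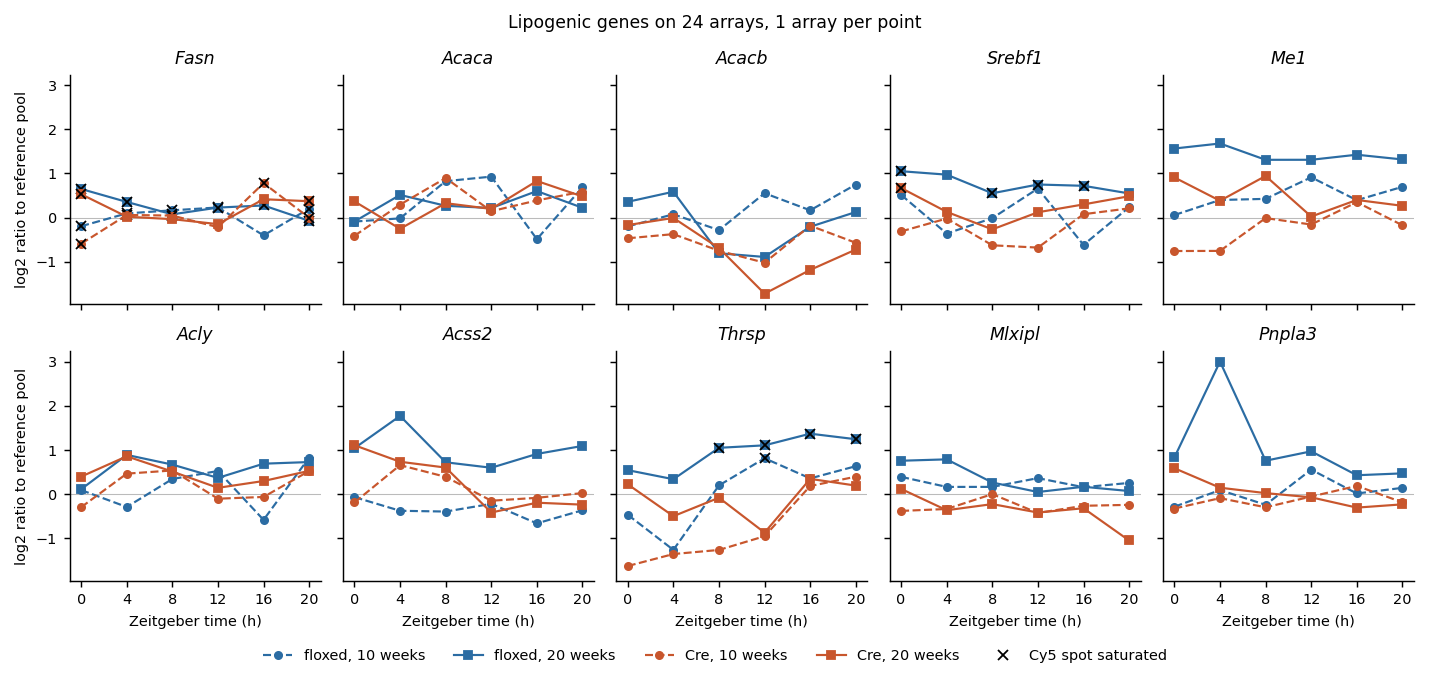
Log2 ratio of liver to reference pool (vertical axis) against zeitgeber time in hours (horizontal axis) for the 10 lipogenic genes, with 1 array per point. Blue is floxed and orange is Cre, broken lines with circles are 10 weeks, solid lines with squares are 20 weeks, and crosses mark arrays whose Cy5 spot was saturated. The 20-week floxed values of Me1, from 1.31 to 1.68, lie above every other value of that gene.

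**Figure D2:**
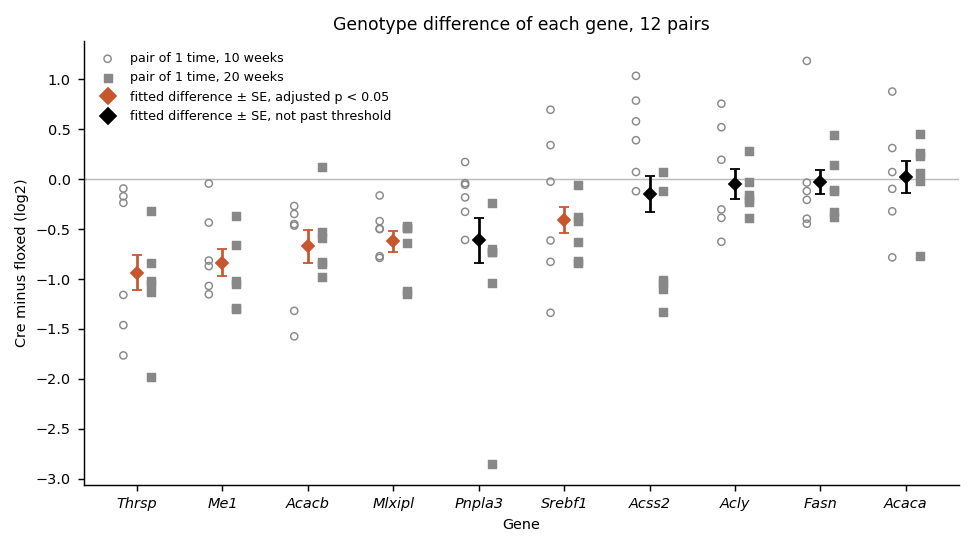
Cre minus floxed on the log2 scale for each gene, for 12 pairs of arrays of 1 age and time (open circles 10 weeks, filled squares 20 weeks), with the fitted difference ± SE as a diamond, orange where the adjusted p was under 0.05. Me1, Thrsp and Mlxipl were below 0 in 12 of 12 pairs.

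Of the enzymes that supply acetyl-CoA neither was called different between genotypes over both ages. Acly ran from -0.58 to 0.89 in the 12 floxed livers (median 0.45) and from -0.29 to 0.86 in the 12 Cre livers (median 0.43), so the groups overlapped over nearly their whole range. The difference was -0.05 ± 0.15 (SE), with a 95% interval from -0.36 to 0.26 and an adjusted p of 0.849 in limma's fit. Acss2 ran from -0.66 to 1.77 in floxed livers (median 0.27) and from -0.41 to 1.11 in Cre livers (median -0.03), with a difference of -0.15 ± 0.18 and an adjusted p of 0.59. It was lower in 6 pairs and higher in 6. That mean joins opposite directions at the 2 ages, given further on.

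The carboxylases differed from each other. Acacb, the isoform of the outer mitochondrial membrane whose malonyl-CoA restrains fatty acid uptake by CPT1, ran from -0.28 to 0.75 in floxed livers of 10 weeks (median 0.12) and from -1.02 to -0.18 in Cre livers (median -0.52). At 20 weeks the floxed values ran from -0.89 to 0.59 (median -0.04) and the Cre values from -1.72 to -0.01 (median -0.71). The groups overlapped at both ages. The lowest values of both genotypes at 20 weeks were those of ZT12. The difference was -0.67 ± 0.16 (adjusted p 0.00587), a level 0.627 times that of floxed livers, with a lower value in 11 of 12 pairs. Its other probe was well above background in Cy5 on 11 arrays only and gave -0.07 ± 0.04.

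Acaca, the cytosolic isoform that feeds fatty acid synthesis, ran from -0.49 to 0.93 in floxed and from -0.41 to 0.90 in Cre livers. The difference of 0.02 ± 0.16 was within the spread between arrays (adjusted p 0.937, 95% interval -0.31 to 0.36). Its 4 probes did not give 1 answer. The second in brightness was lower in Cre livers in 12 of 12 pairs, by -0.32 ± 0.11 (adjusted p 0.0465 over all probes), and its correlation with the brightest over 24 arrays was -0.37. The other 2 gave 0.03 ± 0.06 and 0.06 ± 0.04.

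Fasn was read differently by its 2 probes. The brightest was saturated in Cy5 on 18 of 24 arrays, 11 floxed and 7 Cre, and a saturated spot sets only a lower bound on the level. It was also saturated in Cy3, read as the reference, on 6 arrays, where the ratio is not a lower bound. The brightest probe gave -0.03 ± 0.12 (adjusted p 0.882, 95% interval -0.29 to 0.22). The dimmer probe had no saturated spot and was well above background on all 24 arrays. Its values ran from -0.58 to 0.92 in floxed livers of 10 weeks (median 0.27) and from -0.79 to 0.63 in Cre livers (median -0.36). At 20 weeks they ran from 0.99 to 2.07 in floxed livers (median 1.84) and from -0.47 to 1.75 in Cre livers (median 0.21). Of the Cre livers of 20 weeks ZT0 reached the floxed range and the other 5 lay below it. Over both ages this probe was lower in Cre livers in 11 of 12 pairs, by -0.87 ± 0.23 (adjusted p 0.0104 over all probes). With unsaturated probes in place of saturated ones where a gene has them, 6 members were called lower, Fasn among them (adjusted p 0.00944), and the median was -0.62. That setting was added after seeing the data.

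Over all 19 kept probes of the 10 genes 9 were called lower and 0 higher, beside 11.1% called lower and 10.6% called higher over all 27847 kept probes. The probes of 1 gene share their transcript and are not replicates.

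**Figure D3:**
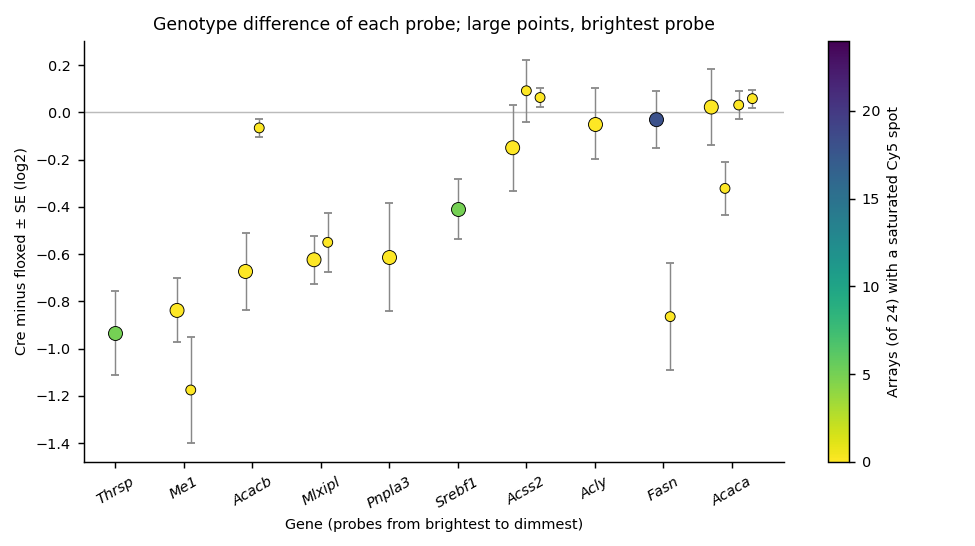
Fitted Cre minus floxed difference ± SE on the log2 scale for the 19 kept probes, grouped by gene and ordered within a gene from brightest to dimmest. Large points are the brightest probe, and the colour gives the number of 24 arrays with a saturated Cy5 spot, which was 18 for the brightest Fasn probe at -0.03 and 0 for the other at -0.87.

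Me1, the NADPH source among the members, was lower in Cre livers. In floxed livers of 10 weeks it ran from 0.06 to 0.91 (median 0.41) and in Cre livers from -0.76 to 0.35 (median -0.16). At 20 weeks floxed values ran from 1.31 to 1.68 (median 1.37) and Cre values from 0.03 to 0.94 (median 0.39), with no overlap. The difference was -0.84 ± 0.14 (adjusted p 0.00021), a level 0.559 times that of floxed livers, and was negative in 12 of 12 pairs. The other Me1 probe gave -1.18 ± 0.22 (adjusted p 0.00098 over all probes), also lower in 12 of 12 pairs, and its correlation with the brightest probe was 0.96.

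Both transcription factor genes were lower. Mlxipl ran from 0.16 to 0.40 in floxed livers of 10 weeks (median 0.21) and from -0.42 to 0.0037 in Cre livers (median -0.30), with no overlap. At 20 weeks floxed values ran from 0.05 to 0.79 (median 0.22) and Cre values from -1.05 to 0.12 (median -0.34), where only the Cre value of ZT0 entered the floxed range. The difference was -0.62 ± 0.10 (adjusted p 0.000247), a level 0.649 times that of floxed livers, in 12 of 12 pairs. The other Mlxipl probe gave -0.55 ± 0.13 and was lower in 11 pairs.

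Srebf1, whose products SREBP-1a and SREBP-1c were not told apart, ran from -0.62 to 0.66 in floxed livers of 10 weeks (median 0.11) and from -0.68 to 0.21 in Cre livers (median -0.17). At 20 weeks floxed values ran from 0.55 to 1.05 (median 0.74) and Cre values from -0.27 to 0.67 (median 0.22), with an overlap at ZT0 of the Cre livers. The difference was -0.41 ± 0.13 (adjusted p 0.0246), negative in 10 of 12 pairs. The spot was saturated in Cy5 on 4 floxed and 1 Cre array, all of 20 weeks. The call did not hold with slide as a random block (-0.37, adjusted p 0.0684), with scan date as a block (-0.39, 0.0598), in the Cy5 channel alone (-0.38, 0.0596), with the 12 pairs as blocks (-0.41, 0.0523) or with saturated spots set missing (-0.37, 0.13).

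Thrsp, the nuclear protein induced with the enzymes, was lower in Cre livers. In floxed livers of 10 weeks it ran from -1.26 at ZT4 to 0.82 at ZT12 (median 0.28), and in Cre livers from -1.62 at ZT0 to 0.40 at ZT20 (median -1.10). At 20 weeks floxed values ran from 0.34 at ZT4 to 1.37 at ZT16 (median 1.08) and Cre values from -0.87 at ZT12 to 0.35 at ZT16 (median 0.06). Only the highest Cre value reached the floxed range at 20 weeks, while at 10 weeks the groups overlapped. The difference was -0.94 ± 0.18 (adjusted p 0.000852), a level 0.523 times that of floxed livers, in 12 of 12 pairs. Thrsp was saturated in Cy5 on 5 floxed arrays and on no Cre array, so its floxed level is a lower bound there, and with those spots missing the difference was -0.88 (adjusted p 0.0281).

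Pnpla3 was the dimmest member, well above background in Cy5 on 10 floxed and 5 Cre arrays. It ran from -0.28 to 0.56 in floxed livers of 10 weeks and from -0.32 to 0.19 in Cre livers, and at 20 weeks from 0.43 to 3.00 in floxed and from -0.30 to 0.59 in Cre livers. The value of 3.00 was the single 20-week floxed array of ZT4, and the next highest was 0.97. The difference was -0.61 ± 0.23 (adjusted p 0.0554), negative in 11 of 12 pairs, and not past the threshold. Without the ZT4 array it was -0.40 with an adjusted p of 0.0286. The call was also gained when the floxed 10-week array of ZT0, ZT4 or ZT8 or the Cre 10-week array of ZT16 was left out, with differences from -0.71 to -0.67. It was gained with the authors' log ratio (-1.55, adjusted p 0.0162), with no background correction (-0.73, 0.0258), with array weights (-0.70, 0.0227), with the 12 pairs as blocks (-0.61, 0.0389) and from the 20-week arrays alone (-1.05, 0.033). With slide as a block the difference was -0.43 (0.231).

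Slides and scan days did not hold the groups evenly. The 24 arrays lay on 7 slides scanned on 6 days, each slide held 1 age, and 4 slides held both genotypes. Within those 4 slides Me1 was lower in Cre livers by -1.11 to -0.65, Thrsp by -1.44 to -0.85, Mlxipl by -0.77 to -0.24, Srebf1 by -0.83 to -0.23 and Acacb by -1.01 to -0.05. Acaca and Pnpla3 were also lower on 4 of 4 slides, Fasn and Acly on 3 and Acss2 on 2. On 1 of the 4 slides, of 20 weeks, the genotypes were compared at different times. It was the only 20-week slide with both genotypes, and the median of the 10 genes there was -0.16. The other slides of that age held a single genotype each. With slide as a random block Me1 (adjusted p 0.000495), Thrsp (0.00141), Mlxipl (0.00154) and Acacb (0.00986) were called lower, and the median of the 10 genes was -0.40.

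No daily rhythm of a member passed the test. No member was called rhythmic in floxed livers, where 1.53% of all genes were, nor in Cre livers, where the share was 0%, nor different in rhythm between genotypes, where it was 0.0316%. The unadjusted p was under 0.05 for 1 member in floxed livers, for 4 in Cre livers and for 0 in the difference, beside 2237, 1708 and 543 genes over the whole array. The median amplitude, the distance from mean to peak, was 0.21 in floxed and 0.22 in Cre livers for the members and 0.11 and 0.10 for all genes. An amplitude cannot be negative and grows with the spread between arrays. The SEs of the members' amplitudes ran from 0.10 to 0.23, so these medians do not show stronger rhythms in the members.

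Thrsp had the largest amplitude among the members in both genotypes. It was 0.67 ± 0.18 in floxed livers with the peak at 15.0 ± 1.0 h (unadjusted p 0.0045, adjusted p 0.14 in limma's fit) and 0.62 ± 0.18 in Cre livers with the peak at 18.2 ± 1.1 h (0.00801, adjusted 0.374). The test of the difference in rhythm gave an unadjusted p of 0.134. With scan date as a block the floxed rhythm was called, with an amplitude of 0.68 and an adjusted p of 0.0382. In Cre livers Acacb (0.46 ± 0.16, peak at 1.01 h), Srebf1 (0.37 ± 0.13, peak at 21.0 h) and Acss2 (0.50 ± 0.18, peak at 3.70 h) also had unadjusted p-values under 0.05, with adjusted p-values from 0.476 to 0.518. Srebf1 had an amplitude of 0.10 ± 0.13 in floxed livers.

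At single times no member was called in any of the 60 tests of a gene at a ZT, where the share over all genes and times was 0.284%. The largest of these differences was Thrsp at ZT12, -1.87 ± 0.40 (adjusted p 0.0534), from pairs of -1.76 at 10 weeks and -1.98 at 20 weeks. It passed the threshold with slide or scan date as a block, with no background correction, with the mean over all kept probes of a gene, with array weights, and when the Cre array of 10 weeks at ZT0, ZT16 or ZT20 or of 20 weeks at ZT0, ZT16 or ZT20 was left out. Pnpla3 at ZT4 (-1.52 ± 0.55, adjusted p 0.568) was called without the floxed 10-week array of ZT4, which left 1 floxed value at that time. At ZT12 the unadjusted p was under 0.05 for 5 members, against 1 to 3 at the other times. Over all genes 1812 had such a p at ZT12, and from 1238 to 2499 at the other times, with the most at ZT16. Me1 differed by -1.18 ± 0.33, Acacb by -1.20 ± 0.41 and Srebf1 by -0.98 ± 0.29 at that time, with adjusted p-values from 0.158 to 0.271.

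Between the ages, 4 members were higher at 20 than at 10 weeks, Me1 by 0.85 ± 0.14, Thrsp by 0.78 ± 0.18, Acss2 by 0.76 ± 0.18 and Srebf1 by 0.58 ± 0.13, with adjusted p-values from 0.000161 to 0.00394 in limma's fit. None was called lower. Over all genes 18.0% were called higher and 13.3% lower at 20 weeks. The median difference of the members was 0.47, against 0.02 over all genes. Mlxipl (-0.000765 ± 0.10), Acaca (-0.01 ± 0.16) and Acacb (-0.25 ± 0.16) were not called. The unsaturated Fasn probe was higher by 1.07 (adjusted p 0.00173 over all probes, of which 16.9% were called higher), and the saturated one by 0.21 ± 0.12 (0.204). Each age had its own slides and scan days and the reference was made of 10-week livers, so age and batch cannot be told apart. With scan date as a block Me1 was the only member called, and with slide as a block Me1 and Thrsp. In the Cy5 channel alone the Thrsp difference was 0.33 and not called (adjusted p 0.164).

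The genotype difference was lower at 20 than at 10 weeks for 8 of the 10 genes, as it was for 54.3% of all genes, and the change was called for Acss2. Over all genes 10.6% had a called change in either direction. At 10 weeks Acss2 ran from -0.66 to -0.06 in floxed livers (median -0.37) and from -0.19 to 0.66 in Cre livers (median -0.03), a difference of 0.46 ± 0.18 (adjusted p 0.182). At 20 weeks it ran from 0.60 to 1.77 in floxed livers (median 0.98) and from -0.41 to 1.11 in Cre livers (median 0.21), a difference of -0.76 ± 0.18 (adjusted p 0.00253). The Cre value was higher in 5 of 6 pairs at 10 weeks and lower in 5 of 6 at 20 weeks. Among Cre livers of 20 weeks ZT0, ZT4 and ZT8 lay from 0.60 to 1.11 and ZT12, ZT16 and ZT20 from -0.41 to -0.19. ZT0 and ZT4 of these lay on another slide than the rest, and the part of slides in this split was not tested. On that slide the mean of ZT0 and ZT4 differed by -0.08 from that of the floxed livers of ZT16 and ZT20. The change in the difference was -1.21 ± 0.25 (adjusted p 0.0119). It was -1.11 with slide as a block (adjusted p 0.0402), where it was called. It was -1.01 with scan date as a block (0.0738) and -1.04 in the Cy5 channel alone (0.0504), and was not called in either. A second Acss2 probe gave -0.54 ± 0.24 (adjusted p 0.152 over all probes) and another, dim probe 0.04 ± 0.08.

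**Figure D4:**
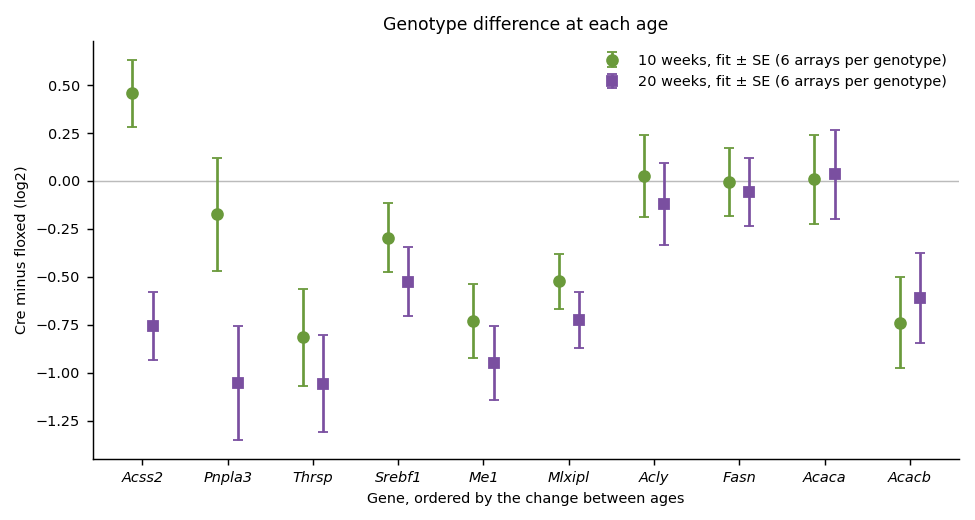
Fitted Cre minus floxed difference ± SE on the log2 scale at 10 weeks (green circles) and at 20 weeks (purple squares), 6 arrays per genotype and age, for the 10 genes in order of the change between ages. Acss2 lies at 0.46 at 10 weeks and at -0.76 at 20 weeks, and Mlxipl at -0.52 and -0.72.

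In the fit of both ages with a term for the change between them, 2 members were lower in Cre livers at 10 weeks, Me1 by -0.73 ± 0.19 (adjusted p 0.0327) and Mlxipl by -0.52 ± 0.14 (0.0419), where 2.27% of all genes were called lower. At 20 weeks 6 were lower, where 19.0% of all genes were. They were Pnpla3 (-1.05 ± 0.30), Thrsp (-1.06 ± 0.25), Me1 (-0.95 ± 0.19), Acss2 (-0.76 ± 0.18), Mlxipl (-0.72 ± 0.14) and Srebf1 (-0.53 ± 0.18), with adjusted p-values from 0.000761 to 0.0294. Acacb differed by -0.74 ± 0.24 at 10 weeks and -0.61 ± 0.24 at 20 weeks, with adjusted p-values of 0.0876 and 0.0514. A fit of the 20-week arrays alone called 7 members lower, Acacb among them, where 17.2% of all genes were called lower. No pair of 20 weeks shared a slide, so at that age genotype and slide cannot be fully told apart. Among the members other than Acss2, no change in the difference between the ages passed the test. Of these Pnpla3 came nearest, with a change of -0.88 ± 0.42 (adjusted p 0.18). Leaving out single arrays gave changes from -1.03 to -0.48. The 20-week pair of ZT4 was -2.86 for Pnpla3, and the other pairs of that age ran from -1.04 to -0.24.

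The members varied together over the 24 arrays. The correlation between 2 members had a median of 0.42 over the 45 pairs of genes and was positive for 44. Me1 with Thrsp was highest at 0.79, and Acaca with Acacb lowest at -0.04. After each genotype and age was centred the median was 0.34 and 41 were positive. These arrays share 1 reference pool and 7 slides, and the correlations are a description. No values for other pairs of genes are given beside them, so they are not shown to be particular to these 10 genes. Me1 (0.87), Srebf1 (0.82) and Pnpla3 (0.79) followed the median profile of the 10 genes most closely, and Acaca (0.36) least. Each member is itself part of that profile, which raises its correlation, and genes outside the set are not. Outside the set the genes most like that profile over 24 arrays were Arcn1 (0.87), Cnn3, Bglap and Slc25a10 (each 0.85), Psme1 (0.84) and Mkln1, Plekhb1 and Atxn10 (each 0.83).

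The steps around the pathway were read from lists chosen with earlier results of these data known. In each list, counts are of the same genotype difference as above. None of the 10 genes of substrate and NADPH supply, among them glucokinase and G6pdx of the pentose phosphate pathway, was called, and the list median was -0.18. Of these G6pdx had a difference of -0.47 ± 0.19 (adjusted p 0.0765). Its difference changed between the ages (adjusted p 0.0126 for the interaction of age and genotype). Khk was saturated in Cy5 on 12 floxed and 5 Cre arrays. The saturated probe gave -0.16 and the other -0.59. With array weights 4 genes of the list were called and from the 20-week arrays alone 5. Over all genes array weights called 19.6% lower and 18.4% higher, and the 20-week arrays alone 17.2% lower and 13.5% higher. The list had 3 calls without the floxed array of 10 weeks at ZT4, the Cre array of 10 weeks at ZT16 or that of 20 weeks at ZT0, 2 without the Cre array of 10 weeks at ZT8 or ZT20, and 1 without the floxed array of 10 weeks at ZT0, ZT8, ZT12 or ZT16, the Cre array of 10 weeks at ZT12, or the floxed array of 20 weeks at ZT8 or ZT20.

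Of 15 genes of desaturation, elongation and triglyceride assembly 5 were lower and 2 higher (median -0.21). Scd2, a stearoyl-CoA desaturase that is not the main one of liver, was higher by 1.02 ± 0.16 (adjusted p 0.000192) in 12 of 12 pairs. Fads2, the delta-6 desaturase, was lower by -0.68 ± 0.12 (0.000352) and Elovl5, an elongase of polyunsaturated fatty acids, higher by 0.47 ± 0.11 (0.00442). Scd1, the main hepatic desaturase and a target of both factors, differed by -0.35 ± 0.17 (0.149) and was saturated on 6 floxed and 3 Cre arrays. Its difference also changed between the ages (adjusted p 0.0172 for the interaction). Dgat2 was saturated in Cy5 on 12 floxed and 10 Cre arrays, and Acsl1 on 12 and 9. The saturated probe gave -0.03 for Dgat2 and 0.25 for Acsl1, and the lowest probe of each gave -0.42 and -0.50.

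Of 17 genes that control SREBP-1c and ChREBP 4 were lower and 3 higher (median -0.10). Insig2, which holds SREBP precursors in the endoplasmic reticulum, was higher in Cre livers by 1.14 ± 0.11 (adjusted p 6.93e-07) in 11 of 12 pairs. This is a mean over the day. Insig2 was called rhythmic in floxed livers, with an amplitude of 0.89 ± 0.11 and its peak at 22.6 h (adjusted p 0.000392 in the rhythm test). Its amplitude in Cre livers was 0.09, and the difference in rhythm was not called (adjusted p 0.12). Mlx, the binding partner of ChREBP, was lower by -0.44 ± 0.07 (9.65e-05) in 12 of 12 pairs, but its other probe gave -0.05. Ppargc1b, a coactivator of SREBP-1c, was lower by -0.37 ± 0.09 (0.00461), and not called with the mean over its probes (-0.22, adjusted p 0.11).

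Of 10 genes that control acetyl-CoA carboxylase or use malonyl-CoA 3 were lower and 1 higher (median -0.08). Cpt1a, the carnitine palmitoyltransferase that malonyl-CoA inhibits, was lower by -0.77 ± 0.11 (adjusted p 7.44e-05) in 12 of 12 pairs. Prkaa2, a catalytic subunit of AMP-activated kinase, was lower by -0.66 ± 0.21 (0.0254) and Mid1ip1, a partner of Thrsp and of the carboxylase, by -0.38 ± 0.13 (0.0346). Neither Prkaa2 nor Mid1ip1 was called with slide as a block (adjusted p 0.0931 and 0.0936), and the list then had 2 calls. The list had 1 call without the floxed array of 20 weeks at ZT16 or the Cre array of 20 weeks at ZT12. It had 2 without the floxed arrays of 20 weeks at ZT4, ZT8, ZT12 or ZT20, the Cre array of 10 weeks at ZT12 or that of 20 weeks at ZT16.

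Of 7 measured genes of insulin signalling 4 were lower and 1 higher (median -0.32). Trib3, a pseudokinase that binds AKT, was lower by -1.46 ± 0.16 (adjusted p 2.16e-06) in 11 of 12 pairs, and its other probe gave -0.26. The mean over both probes was -0.86. Trib3 was called rhythmic in floxed livers, with an amplitude of 0.92 ± 0.16 and its peak at 6.65 h (adjusted p 0.00841 in the rhythm test). Its amplitude in Cre livers was 0.14, and the difference in rhythm was not called. Irs1, an insulin receptor substrate, was higher by 0.82 ± 0.12 (6.91e-05) in 12 of 12 pairs, while its other probe gave 0.23 and the mean over both 0.52. Pik3r1, a regulatory subunit of PI3 kinase, was lower by -0.32 ± 0.08 (0.00861), and its 4 probes ran from -0.32 to 0.03. With slide as a block 3 of the 7 were called.

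**Figure D5:**
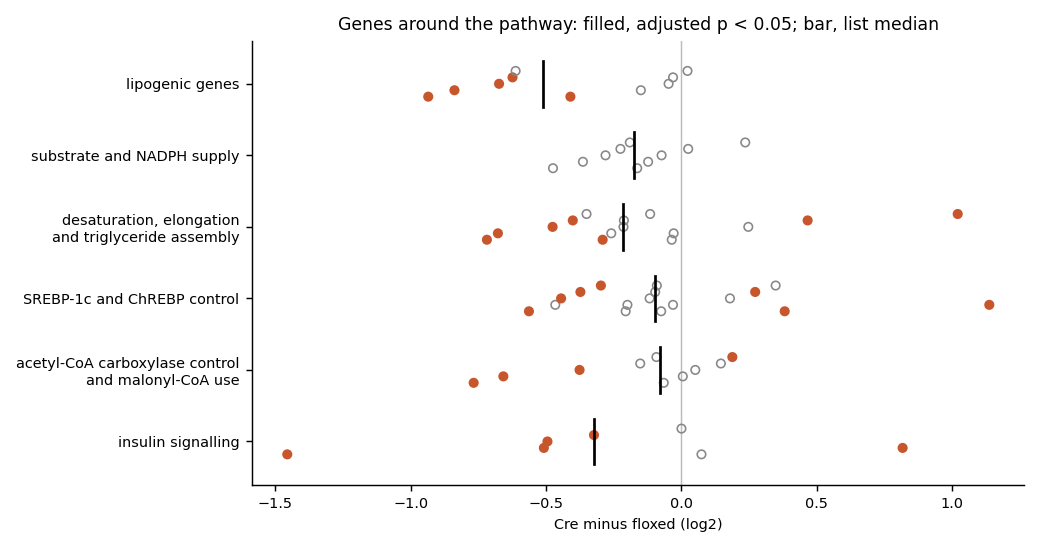
Cre minus floxed difference on the log2 scale for each gene (points) of the 10 lipogenic genes and of 5 lists around them, filled where the adjusted p was under 0.05, with the list median as a bar. The median of the lipogenic genes is -0.51 and those of the 5 lists lie between -0.32 and -0.08. Each gene is shown by its brightest probe, also where that probe was saturated in Cy5.

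In bulk liver fewer cells of a type and less RNA per cell cannot be told apart. Of 6 measured hepatocyte markers Hnf4a was lower by -0.41 ± 0.08, with its 3 probes from -0.41 to 0.07, and the other 5 were not called. Of those, Alb, Apoa1, Tat and Cps1 were saturated in Cy5 on 12, 11, 12 and 11 floxed arrays. On Cre arrays the numbers were 12, 10, 8 and 6, so their ratios say little about a change. Ttr was not saturated and differed by -0.27 ± 0.18. Of 6 adipocyte markers Cidea (-1.81 ± 0.38) and Pparg (-0.55 ± 0.07) were lower and Fabp4 (0.50 ± 0.11, with 3 probes from -0.06 to 0.50) higher. The differences of Cidea and Fabp4 changed between the ages (adjusted p 2.5e-06 and 0.0447 for the interaction of age and genotype). The mean ratio of the adipocyte list ran from -0.08 to 0.81 in floxed and from -0.21 to 0.11 in Cre livers, and its defining genes Adipoq, Lep and Plin1 were well above background in Cy5 on 15, 7 and 16 arrays and were not called. Of 4 endothelium markers Lyve1 (probes 0.14 and 0.44) was higher, and Pecam1 (-0.04), Stab2 (-0.22) and Kdr (0.11) were not called. Of 4 stellate markers Lrat (probes 0.18 and 0.57) was higher, and Des (0.07), Col1a1 (0.31) and Reln (0.03) were not called. Of 2 measured red cell markers Alas2 was lower and Hba-a1 (-0.02) was not called. No macrophage or cholangiocyte marker was called, nor the pancreas marker Cela1, whose ratio was 3.76 in the Cre liver of 20 weeks at ZT4 and at most 0.61 in the floxed livers. Their part in the differences of the lipogenic genes was not tested.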

How the data were processed

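Liver RNA of 24 genotype, age and time groups was measured on 2-colour Agilent arrays. Per the file headers, the scans were read with Agilent Feature Extraction 9.1.3.1. For each spot the deposited files give intensity and background in both dyes, a dye-normalised log10 ratio, and quality flags as other columns. The value table deposited by the authors repeats that log10 ratio.

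Here mean signals were corrected with normexp (offset 50) and loess within arrays, control spots and outliers were left out, and a probe was kept if 4 or more of the 24 arrays had its Cy3 signal clear of background (the well-above-background flag). Arrays had median signals of 62.4 to 154.1 (Cy3) and 78.1 to 241.3 (Cy5). Probes were named through accession, symbol or older symbol. limma 3.58.1 (R 4.3.3) fitted log2 ratios by age and, within each genotype, by a mean and a cosine curve of 24 h, with Benjamini-Hochberg adjustment over all genes. An interaction of age and genotype, and genotype means at each time, came from further fits. The fits were tested on simulated data. Arrays are pools without replicates at a time and age, so errors measure the spread between arrays around the fit, and the number of arrays limits precision.

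The members and lists were chosen with earlier results of these data known. All 10 members were named, with the 3 called genes of smallest p in each list, the 8 genes most like the members' median profile, and Arntl; other genes named were singled out after their values were seen. Alternatives covered slide and scan date as blocks, filters, background, normalisation, channel, probe choice, array weights, saturation, each age alone, the 12 pairs of arrays of 1 age and time as blocks (added later) and leaving out each array.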

Additional observations from a re-analysis of the deposited data

Results flagged for a closer look

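The genotype difference of Acss2, which encodes the cytosolic acetyl-CoA synthetase, changed between 10 and 20 weeks by -1.21 ± 0.25 on the log2 scale (adjusted p 0.0119 for the interaction of age and genotype in limma's fit). It is listed because the effect of the same contrast differed between the ages by a test of the difference. Cre livers were higher in 5 of 6 pairs at 10 weeks and lower in 5 of 6 pairs at 20 weeks. Each age had its own slides, and no pair of 20 weeks shared a slide. With slide as a block the change was -1.11 (adjusted p 0.0402) and with scan date as a block -1.01 (0.0738). Groups of 1 array could not be searched for outlying samples.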

How the results depend on the processing

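Of the 5 members called lower in Cre livers, Me1 and Mlxipl were called under all 15 alternatives and when each array in turn was left out, and Thrsp and Acacb under all but the 10-week arrays alone. From the 10-week arrays alone 2 members were called lower, where 1.52% of all genes were. Left-out arrays gave from 0 to 1 calls at single times, where slide block, scan date block, no background correction and mean over probes each gave 1 and array weights 4. Thrsp, rhythmic in floxed livers with scan date as a block, made that count 1. The age count fell from 4 to 2 with slide and to 1 with scan date as a block, and the interaction count from 1 to 0 with scan date as a block and in the Cy5 channel alone. Substrate supply had 1 call with no background correction, with the authors' log ratio, with the mean over probes and with unsaturated probes, 4 with array weights and 5 at 20 weeks, and from 0 to 3 without single arrays. Over all genes array weights called 19.6% lower and 18.4% higher, and the 20-week arrays alone 17.2% lower and 13.5% higher. Carboxylase control had 2 calls with slide or scan date as a block and in the Cy5 channel alone, 0 at 10 weeks, and from 1 to 4 without single arrays. Insulin signalling had 3 with either block and 1 at 10 weeks, where triglyceride assembly and SREBP-1c control each had 1. The cause of these changes was not tested. No called value turned its sign. With saturated spots missing Fasn rested on 1 floxed and 4 Cre arrays (0.62, adjusted p 0.129). Aquantile leaves ratios as they are, and single ages left no residual for tests at single times. With age and time as a block (12 pairs, added after seeing the data) substrate supply had 1 call, Srebf1 and Mid1ip1 (adjusted p 0.0997) were not called and Pnpla3 was. No other member changed its call, nor did any other of the 3 called genes of smallest p in each list. Single values of the remaining named genes were not followed under the alternatives.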
